A study of Mus musculus with 12 samples.

Results

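The genes described here are Ccn1, Ccn2, Tgfbi, Tnc, Postn, Fn1 and Thbs1, which encode secreted matrix-associated proteins and are commonly listed among the targets of TGF-beta signalling. They were chosen by name, with all probe sets annotated to each symbol, and all 7 of these 7 were measured among the 18193 genes of the arrays. They were covered by 16 probe sets, of which Ccn1 and Tgfbi had 4 each, Tnc, Fn1 and Thbs1 had 2 each, and Ccn2 and Postn had 1 each. One more probe set is annotated to both Pald1 and Thbs1 and was not used.

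Expression was profiled on 12 Affymetrix arrays of cells sorted by flow cytometry from back skin. The mice were females of mixed C57BL/6 and CD1 strain, aged 72 to 74 days, whose hair follicles were passing from their second rest phase (telogen) into growth (anagen). The 2 genotypes are called TßRII-cKO, a conditional knockout of the type II TGF-beta receptor, and TßRII-Het, the control, which by its name is heterozygous; both carry the Rosa26-YFP reporter that was used for sorting together with P-cadherin and CD34. Neither the Cre driver nor the number of mice behind an array was given in the sources used here. Each genotype gave cells of the hair germ (HG), of the bulge and total skin keratinocytes in a set 2 and a set 1, which makes 12 combinations with 1 array each. HG and bulge cells, the hair follicle stem cells (HFSCs), were labelled aberrantly quiescent in cKO of set 2, quiescent in cKO of set 1, activated in Het of set 2 and quiescent in Het of set 1. Total keratinocytes carry no such label, so their 2 arrays of a genotype form 1 group, and each of the 8 HFSC arrays is a group of its own. Arrays of 1 fraction therefore differ in genotype and set, and p-values rest on the spread among arrays, not among mice.

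TGF-beta ligands bind a receptor pair that includes the type II receptor, and the receptors phosphorylate Smad2 and Smad3, which enter the nucleus with Smad4 and act on target genes. Matricellular proteins are secreted, bind integrins, other receptors and growth factors, and alter how cells sense the matrix more than they bear load. In skin, much of this matrix is made by dermal fibroblasts, while keratinocytes and the outer root sheath also make several of these proteins, and their genes are known to rise in wounds. Ccn1 and Ccn2 are also standard targets of the YAP and TEAD transcription factors, and Ccn1 is known as an immediate early gene.

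Signal is MAS5 intensity on a linear scale, with each array scaled to the same trimmed mean of 500, and levels are given for the probe set of a gene with the highest mean log2 signal. Each of the 7 highest probe sets lay above the median of all arrays (84.7) on all 12 arrays. Some arrays stood apart in gene lists that hold none of these genes. The mean log2 signal of 9 keratinocyte markers was 12.55 in activated Het HG of set 2 and lay between 13.21 and 14.17 on the other arrays. The mean of 20 immediate early and dissociation stress genes was highest in total keratinocytes of cKO set 2 (12.88) and in activated Het bulge of set 2 (12.05), was lowest in activated Het HG of set 2 (10.26), and lay between 10.61 and 11.59 elsewhere. Tgfbr2, which encodes the targeted receptor, had log2 signals of 11.31 to 12.14 in cKO and 10.35 to 12.39 in Het. Its difference of 0.24 between cKO and Het did not pass (limma adjusted p = 0.67), and where its probes lie in relation to the deletion was not given in the sources used here.

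Promoter sequence was found in the RefSeq table (GRCm38.p6) for Ccn1, Tgfbi, Tnc and Postn, and not for Ccn2, Fn1 and Thbs1. The 250 bases before a start site are shown for these 4, the members found there. They are also the members that stood at least 2-fold below or above all other HG arrays in activated Het HG, as described further on. Letters in capitals are matches to the Smad box CAGAC, to CATTCC, bound by TEAD factors, to the AP-1 site TGACTCA, to the SRF CArG box, or to the TATA boxes TATAAA and, in its longer form, TATATAA. Each was searched on both strands, and GTCTG is the Smad box read on the opposite strand. Sequences run 5′ to 3′ along the gene.
Ccn1, chr3:145649986-145650235, minus strand: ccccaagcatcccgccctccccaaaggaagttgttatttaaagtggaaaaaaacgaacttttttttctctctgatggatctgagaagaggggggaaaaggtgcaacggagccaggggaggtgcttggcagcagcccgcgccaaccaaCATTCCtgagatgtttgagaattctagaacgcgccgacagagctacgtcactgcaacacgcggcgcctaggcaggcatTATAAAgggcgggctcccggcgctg
Tgfbi, chr13:56609336-56609585, plus strand: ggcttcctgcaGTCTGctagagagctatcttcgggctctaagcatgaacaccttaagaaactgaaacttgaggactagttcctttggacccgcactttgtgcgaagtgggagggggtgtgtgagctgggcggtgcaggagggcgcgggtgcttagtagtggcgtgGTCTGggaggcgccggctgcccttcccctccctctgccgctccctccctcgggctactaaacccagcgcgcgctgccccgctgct
Tnc, chr4:64047016-64047265, minus strand, upstream of 2 listed starts: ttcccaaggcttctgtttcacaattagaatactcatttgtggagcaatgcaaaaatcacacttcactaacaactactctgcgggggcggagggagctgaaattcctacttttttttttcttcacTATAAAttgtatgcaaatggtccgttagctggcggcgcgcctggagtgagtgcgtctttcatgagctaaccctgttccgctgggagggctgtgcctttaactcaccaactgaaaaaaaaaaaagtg
Postn, chr3:54360857-54361106, plus strand, downstream of 2 listed starts: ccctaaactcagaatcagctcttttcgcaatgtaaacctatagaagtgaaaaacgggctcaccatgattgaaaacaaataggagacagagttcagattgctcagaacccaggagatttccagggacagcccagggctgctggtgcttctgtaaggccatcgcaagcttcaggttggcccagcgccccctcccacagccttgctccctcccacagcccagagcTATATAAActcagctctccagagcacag
Of these 4 windows, that of Ccn1 holds CATTCC from 103 to 98 bases before the start and TATAAA from 25 to 20 bases before it. The Tgfbi window holds GTCTG at 239 to 235 and at 85 to 81 bases before the start, and no TATA match. The Postn window holds TATATAA at 28 to 22 bases, which overlaps TATAAA, and the Tnc window holds TATAAA at 126 to 121 bases. The windows of the other start sites, which are not shown, hold GTCTG and TATATAA for Tnc and CAGAC for Postn. Over the same length, CAGAC occurs on either strand in 42.2% of 32851 promoters, CATTCC in 12.6%, TATAAA in 12.4%, TGACTCA in 4.46%, TATATAA in 3.04% and the CArG box in 1.47%. A match is a description of the letters only.

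HG was set against bulge to ask how these genes differ between the stem cell compartments of the follicle. HG cells carried less Ccn2, Postn, Ccn1, Tgfbi and Tnc than bulge cells and more Thbs1, while Fn1 did not pass. With limma on 8 arrays, and with each combination of genotype and set (a condition, 4 in all) as a block, 6 of 7 members passed an adjusted p of 0.05, beside 19.2% of the 12589 genes tested. Of the members 5 fell, beside 10.7% of genes, and 1 rose, beside 8.44% of genes. The median difference was -1.60 (log2) over the 7 members and -0.02 over all genes tested. The HG and bulge arrays did not overlap for 5 members, Ccn1, Ccn2, Tgfbi, Postn and Thbs1, beside 21.5% of genes. Arrays of a sorted fraction cannot tell fewer cells of a type from less RNA per cell.

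Ccn2, formerly Ctgf, encodes a modular protein that binds growth factors and integrins and is the classic readout of TGF-beta in fibrosis. In HG its signal was 5444 in cKO of set 2, 7231 in cKO of set 1, 2891 in activated Het of set 2 and 11586 in Het of set 1. In bulge it was 39521, 50166, 66712 and 57297 in the same order of conditions. In total keratinocytes it was 1609.9, 7581, 6572 and 16017. The 4 bulge arrays lay above all others, and the HG and total keratinocyte arrays overlapped. HG minus bulge was -3.12 (log2, SE 0.32, adjusted p = 2.71e-04), and HG was lower in 4 of 4 conditions.

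Postn encodes periostin, an integrin ligand that aids collagen cross-linking. In HG its signal was 11954 in cKO of set 2, 10887 in cKO of set 1, 3308 in activated Het and 18221 in Het of set 1. Bulge arrays gave 77358, 90186, 62543 and 51775 in that order, and total keratinocyte arrays gave 6607, 10139, 9177 and 15336. As for Ccn2, bulge stood above both other fractions, which overlapped. The difference of HG from bulge was -2.87 (log2, SE 0.37, adjusted p = 8.55e-04) and had the same sign in 4 of 4 conditions. Ccn2 and Postn were the members with the largest differences here, and in each the activated Het HG array was the lowest of the HG arrays.

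Tgfbi encodes a fasciclin-domain protein related to periostin that binds collagen and integrins and was named for its induction by TGF-beta. In HG its signal was 19022 in cKO of set 2, 25423 in cKO of set 1, 3477 in activated Het and 19474 in Het of set 1. In bulge it was 35519, 47287, 43609 and 38068, and in total keratinocytes 26514, 25800.2, 19523 and 23700.0. The 3 HG arrays other than activated Het lay close to the range of total keratinocytes, and the activated array lay far below it. HG minus bulge was -1.60 (log2, SE 0.43, adjusted p = 0.0299). The difference was -3.65 in Het of set 2 and between -0.97 and -0.90 in the other conditions. Without both Het arrays of set 2 the difference was -0.92 (adjusted p = 0.0018).

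Ccn1, formerly Cyr61, encodes an integrin ligand of the CCN family. In HG its signal was 1114 in cKO of set 2, 2866 in cKO of set 1, 434.8 in activated Het and 2576 in Het of set 1. Bulge arrays gave 3243, 4066, 12251 and 6327, and total keratinocyte arrays 8128, 3541, 1761 and 3302. The HG arrays lay below all bulge arrays, and total keratinocytes overlapped both. The difference of HG from bulge was -2.04 (log2, SE 0.56, adjusted p = 0.0344), from -4.82 in Het of set 2 to -0.50 in cKO of set 1. Without both Het arrays of set 2 it was -1.11 (adjusted p = 4.66e-04), a change of more than 1.5 times.

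Tnc encodes tenascin-C, which opposes firm adhesion to fibronectin and is known to rise in wound edges. Its HG signal was 447.7 in cKO of set 2, 323.6 in cKO of set 1, 1455 in activated Het and 264.5 in Het of set 1. Bulge arrays gave 1358, 522.6, 1689 and 560.8, and total keratinocyte arrays 356.4, 272.8, 791.9 and 241.9. Activated Het HG lay within the range of the bulge arrays, the other 3 HG arrays lay below it, and total keratinocytes overlapped both fractions. HG was lower than bulge in 4 of 4 conditions, with a fitted difference of -0.90 (log2, SE 0.24, adjusted p = 0.0298), and activated Het HG, at -0.22, came closest to its bulge array.

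Thbs1 encodes thrombospondin-1, which binds CD47 and CD36 and is known to activate latent TGF-beta. Its HG signal was 1059.6 in cKO of set 2, 889.9 in cKO of set 1, 937.5 in activated Het and 541.9 in Het of set 1. In bulge it was 414.0, 423.6, 405.2 and 459.8, and in total keratinocytes 601.4, 565.2, 474.2 and 395.9. The bulge arrays lay close together and below all HG arrays. HG was higher than bulge by 0.97 (log2, SE 0.23, adjusted p = 0.0176) in 4 of 4 conditions, which made Thbs1 the member that rose in HG.

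Fn1 encodes fibronectin, the adhesive glycoprotein on which other matrix is assembled. Its HG signal was 4437 in cKO of set 2, 4330.0 in cKO of set 1, 2096 in activated Het and 3040.3 in Het of set 1. Bulge arrays gave 2832, 5975, 2296 and 4307, and total keratinocyte arrays 596.2, 1778, 860.9 and 1419.7. HG and bulge overlapped and each stood above total keratinocytes without overlap. The difference of HG from bulge was -0.11 (log2, SE 0.21, adjusted p = 0.74).

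**Figure D1:**
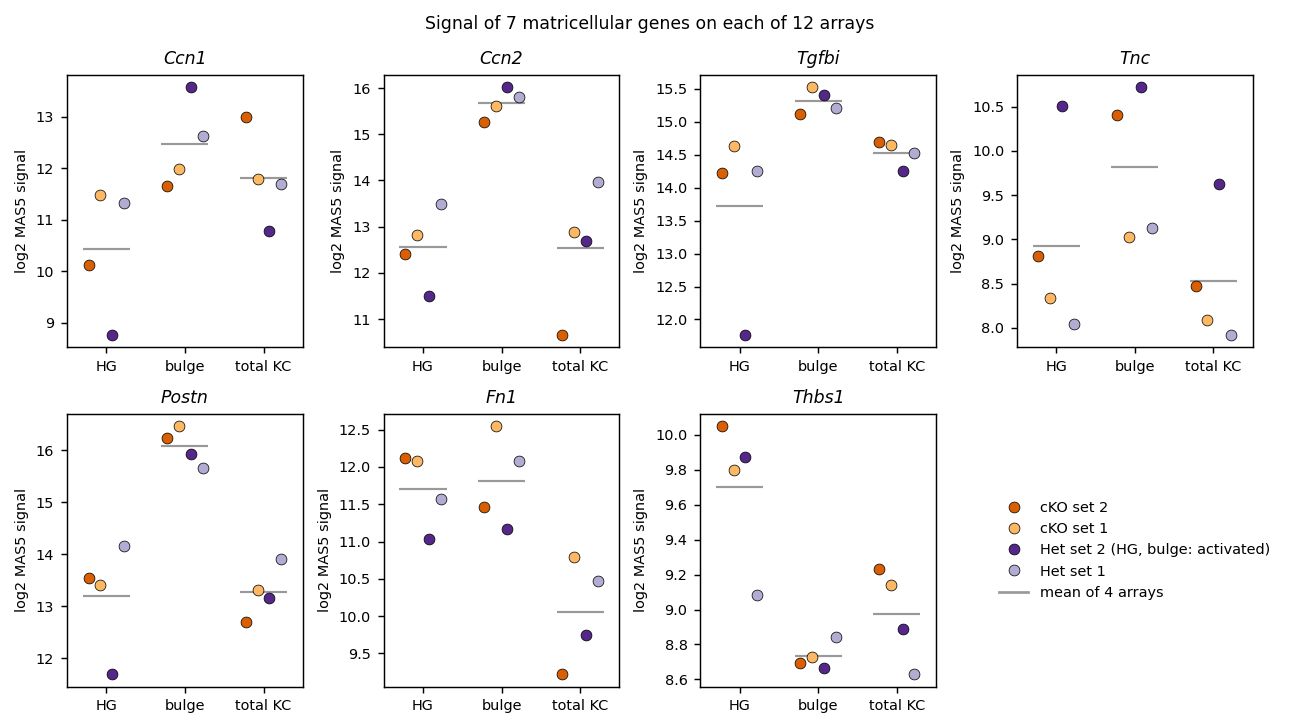
Log2 MAS5 signal of the 7 genes on each of 12 arrays, in HG, bulge and total keratinocytes (total KC); points are single arrays coloured by genotype and set, and the grey line is the mean of the 4 arrays of a fraction. The bulge arrays stand above the others for Ccn2 and Postn, and the activated Het HG array is the lowest HG array for Ccn1, Ccn2, Tgfbi, Postn and Fn1 and the highest for Tnc.

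The calls between HG and bulge differed in how far they depended on the setting. Over 13 alternative settings, those of Ccn2 and Postn were kept in 13 and 12, Thbs1 in 8, Ccn1 in 7, Tnc in 6 and Tgfbi in 5. The count of 6 members became 3 without cKO set 1 (beside 11.6% of genes in that fit), 2 without cKO set 2 (10.6%) and 3 without Het set 1 (9.74%), and was 6 without Het set 2 (22.7%). With no replicate block Tgfbi (adjusted p = 0.0583) and Tnc (adjusted p = 0.305) no longer passed.

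Against total keratinocytes the question was whether the stem cell fractions carry more of these transcripts than the mixed epithelium. Fn1 rose in both fractions, Ccn2, Postn and Tnc rose in bulge, and Thbs1 rose in HG. In HG, limma on 12 arrays called 2 of 7 members risen, beside 5.11% of the 12749 genes tested, and 0 fallen, beside 5.72% (10.8% in either direction). Fn1 rose by 1.64 (log2, SE 0.24, adjusted p = 0.00303) and Thbs1 by 0.73 (SE 0.20, adjusted p = 0.0369), each in 4 of 4 conditions. Only Fn1 did not overlap between these fractions, beside 15.1% of genes. Thbs1 did not pass in any fit that left out arrays, where the adjusted p lay between 0.0645 and 0.137. The other 5 members gave differences in log2 from -1.39 for Ccn1 (adjusted p = 0.141) and -0.82 for Tgfbi (adjusted p = 0.183), over -0.07 for Postn and 0.01 for Ccn2, to 0.40 for Tnc.

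In bulge against total keratinocytes 4 of 7 members rose, beside 13.8% of genes, and 0 fell, beside 10.5% (24.2% in either direction). Ccn2 rose by 3.13 (log2, SE 0.41, adjusted p = 1.67e-04) and Postn by 2.81 (SE 0.36, adjusted p = 1.42e-04). Fn1 rose by 1.75 (SE 0.24, adjusted p = 2.54e-04) and Tnc by 1.29 (SE 0.22, adjusted p = 0.00112), and each of the 4 was higher in 4 of 4 conditions. Arrays did not overlap for 4 members, Ccn2, Tgfbi, Postn and Fn1, beside 26.5% of genes. Tgfbi, at 0.78, did not pass (adjusted p = 0.157), and passed without the 3 arrays of Het set 2 (0.66, adjusted p = 0.011). Ccn1 gave 0.65 (adjusted p = 0.449) and Thbs1 gave -0.24 (adjusted p = 0.41). Tnc did not pass with no replicate block (adjusted p = 0.113) or with its probe sets averaged (0.90, adjusted p = 0.0546). The comparisons of HG and of bulge with total keratinocytes share the same control arrays.

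**Figure D2:**
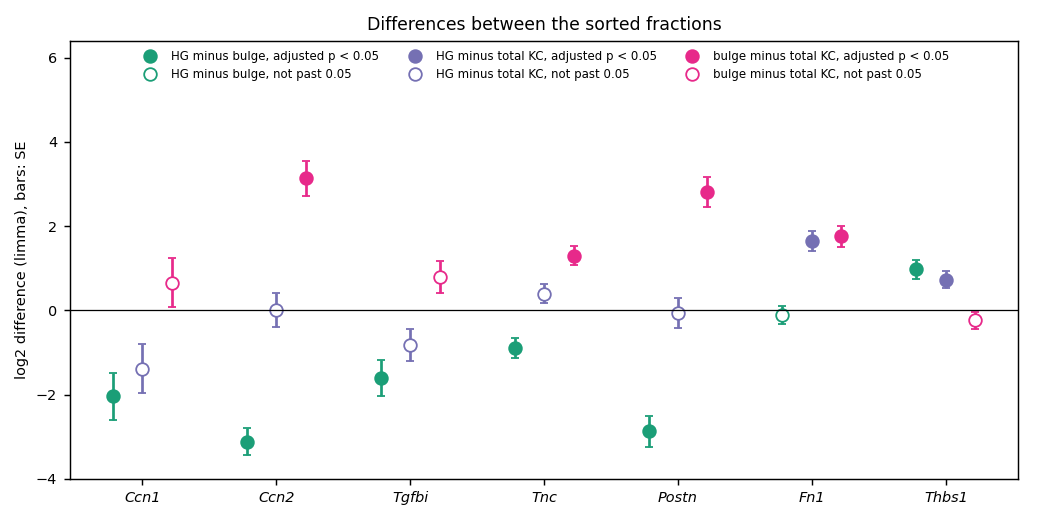
Log2 differences between fractions from limma for the 7 genes, with standard errors as bars: HG minus bulge and HG minus total keratinocytes and bulge minus total keratinocytes (total KC). Filled points passed an adjusted p of 0.05 and open points did not; Ccn2 and Postn are lower in HG than in bulge and higher in bulge than in total keratinocytes, and Fn1 is above total keratinocytes in both fractions.

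Fibroblast, melanocyte, endothelial, bulge stem cell and hair germ genes moved between the fractions beside these results. Of all genes tested, 10.7% fell and 8.44% rose in HG against bulge. In bulge against total keratinocytes 13.8% rose and 10.5% fell, and in HG against total keratinocytes 5.11% rose and 5.72% fell. Of a list of 12 fibroblast markers 11 were measured, and of these 10 fell and 0 rose in HG against bulge, with a median of -3.40 (log2). In bulge against total keratinocytes 10 rose and 0 fell (median 2.60), and in HG against total keratinocytes 3 fell. Their summed signal lay between 26360.1 and 37457 on the HG arrays. It lay between 145797 and 325552 on the bulge arrays and between 24944 and 58478 in total keratinocytes. In activated Het HG the sum was 33493, and the marker Dcn had a log2 signal of 14.56 against 12.48 to 12.81 on the other HG arrays. The mean log2 signal of these markers was 9.49 there, the lowest of all arrays, against 10.07 to 10.57 on the other HG arrays. All 11 lay above the floor on all 12 arrays, and Col3a1, a fibrillar collagen gene, had log2 signals of 11.01 to 12.65 in HG and 15.13 to 16.16 in bulge. Of 9 melanocyte markers 8 rose in HG against total keratinocytes (median 2.21), and 8 rose and 1, Mitf, fell in HG against bulge (median 2.69). Their summed signal was 12338 to 21711 in HG, 7263 to 9587 in bulge and 1781 to 4581 in total keratinocytes. Of 9 endothelial markers 7 were tested, of which 4 rose in bulge against total keratinocytes (median 1.31), with summed signals of 679.3 to 1469.7 in bulge and 244.1 to 768.8 in total keratinocytes. Of 14 bulge stem cell genes 11 fell and 0 rose in HG against bulge (median -2.20). In bulge against total keratinocytes 13 of them rose and 0 fell (median 2.36). Of 12 tested hair germ and early anagen genes 7 rose and 0 fell in HG against bulge (median 1.23). In bulge against total keratinocytes 1 of these rose and 4 fell (median -1.03). Fibroblasts are known to express Postn, Fn1, Ccn2 and Tnc, and the part of all these lists in the members' values was not tested. In total keratinocytes of cKO set 2, the array with the highest stress gene mean, Ccn1 had the highest and Ccn2 the lowest signal of the 4 arrays of that fraction. For Ccn1 this depended on the probe set. On 1457823_at and 1442340_x_at that array gave 731.8 and 797.6, below the 1961 and 1754 of cKO set 1.

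Different probe sets of a gene did not always give the same picture, and their levels cannot be compared with each other. The 4 Tgfbi probe sets followed each other over the 12 arrays (r between 0.97 and 1.00 with the highest) and gave differences of HG from bulge between -1.63 and -1.53 (log2). For Ccn1, 1438133_a_at followed the highest probe set, 1416039_x_at (r = 0.98), with a difference of HG from bulge of -1.72 (limma over all probe sets, adjusted p = 0.0558). The Ccn1 probe sets 1457823_at and 1442340_x_at followed it less (r = 0.47 and 0.54) and gave 0.00 and -0.17 (adjusted p = 0.999 and 0.882). On 1457823_at the signal was 2013 in cKO of set 2, 2961 in cKO of set 1, 239.2 in activated Het and 1925 in Het of set 1 in HG, against 946.7, 1338, 2688 and 811.3 in bulge. There the activated Het arrays kept their places as the lowest in HG and the highest in bulge, while the other 3 HG arrays lay above the other 3 bulge arrays. The suffix _x_at marks sets with probes that are shared or nearly shared with other sequences.

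The second Fn1 probe set, 1437218_at, rose in HG against bulge by 1.53 (log2, adjusted p = 0.019), where the highest did not pass, and against total keratinocytes by 2.80 (adjusted p = 0.00376). It was low, above the median of all arrays on 5 of 12. The second Thbs1 probe set gave 0.26 in HG against bulge (adjusted p = 0.572) and 0.22 against total keratinocytes (adjusted p = 0.664). That of Tnc was above the median on 1 array and at the floor on 6, so that it carried little of the Tnc signal. For Thbs1 and Ccn1 the call in HG against bulge was made on the highest probe set alone.

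**Figure D3:**
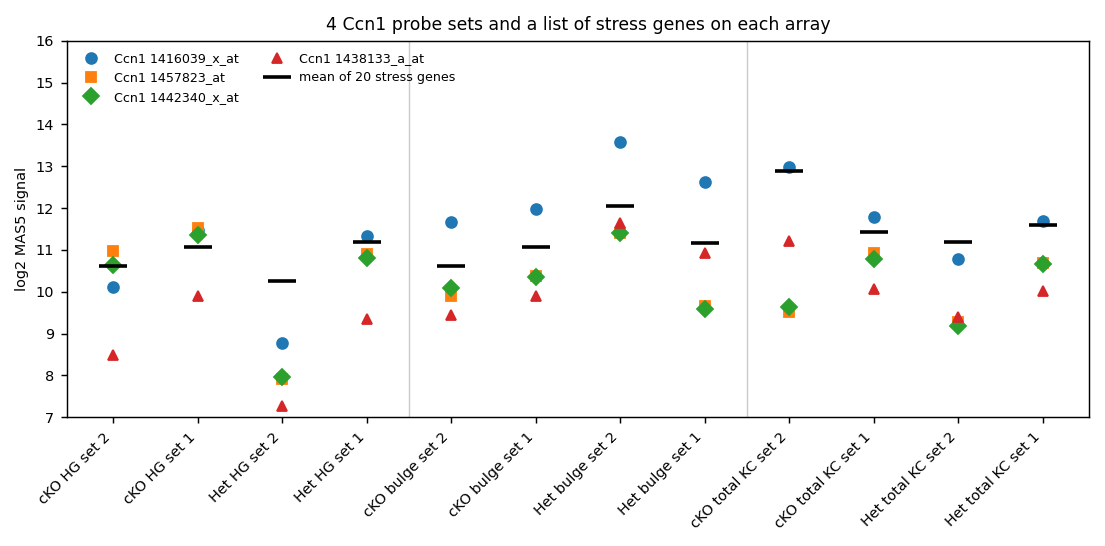
Log2 MAS5 signal of the 4 Ccn1 probe sets and the mean of 20 stress genes (black bars) on each of 12 arrays, grouped by fraction. Probe sets 1416039_x_at and 1438133_a_at move together, 1457823_at and 1442340_x_at move together, and all 4 are lowest in activated Het HG, where the stress gene mean is also lowest.

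The comparison of cKO with Het asked what loss of the receptor changes. With limma on 12 arrays, and with fraction and set as a block of 6 levels, 0 of 7 members passed, as did 0% of the 12749 genes tested. At an unadjusted p under 0.05 there were 1099 genes and 1 member, Ccn2. Ccn2 gave -0.64 (log2, SE 0.28, adjusted p = 0.58) and was higher in cKO in 1 of 6 pairs of arrays, that of HG in set 2 (0.91). The other pairs ran from -2.03 in total keratinocytes of set 2 to -0.19 in bulge of set 1. Tgfbi gave 0.57, Fn1 0.36 and Thbs1 0.28, each higher in cKO in 5 of 6 pairs, and the difference of Tgfbi was led by HG of set 2 (2.45), where the Het array was the activated one. Tnc gave -0.47 with 2 of 6 pairs up, Ccn1 0.21 with 4 and Postn 0.19 with 3, and adjusted p-values of all members lay between 0.58 and 0.896.

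Within the HFSCs the genotypes were compared by set, with HG and bulge as the observations of a condition and fraction as a term. In set 1, where both genotypes are labelled quiescent, members ranged from -0.44 to 0.49 (log2) and 0 of 7 passed, beside 0% of 12589 genes; 0 members and 261 genes had an unadjusted p under 0.05. In set 2, where aberrantly quiescent cKO cells meet activated Het cells, 0 of 7 passed, beside 0.262% of genes (0.254% risen and 0.00794% fallen), and 2 members and 2226 genes had an unadjusted p under 0.05. Those 2 members were Tnc at -1.01 (adjusted p = 0.188) and Fn1 at 0.69 (adjusted p = 0.264). Postn gave 1.08 (adjusted p = 0.312) and Tgfbi 1.08 (adjusted p = 0.385). The count depended on which Het array of set 2 was left out, and HG and bulge gave unlike differences. In HG of set 2, cKO minus Het was 2.45 (log2) for Tgfbi, 1.85 for Postn, 1.36 for Ccn1 and 1.08 for Fn1. It was 0.91 for Ccn2, 0.18 for Thbs1 and -1.70 for Tnc. In bulge of set 2 it was -0.30 for Tgfbi, 0.31 for Postn, -1.92 for Ccn1 and 0.30 for Fn1. There Ccn2 gave -0.76, Thbs1 0.03 and Tnc -0.32, so Ccn1, Ccn2 and Tgfbi differed in sign between the fractions. With either Het array left out, a single array stands for activated Het, and its spread is taken from the other arrays.

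Activated (set 2) and quiescent (set 1) Het HFSCs were compared to ask which of these genes go with activation. Tnc was the member that rose, and for 5 of the others the HG and bulge arrays moved in opposite directions. Of 7 members 1 rose, beside 0.0635% of genes, and 0 fell, beside 0.643% (0.707% in either direction). Tnc rose by 2.03 (log2, SE 0.34, adjusted p = 0.0371), by 2.46 in HG and 1.59 in bulge. Its signal was also higher in set 2 than in set 1 in total keratinocytes of Het (791.9 against 241.9) and of cKO (356.4 against 272.8), and in cKO HG (447.7 against 323.6) and cKO bulge (1358 against 522.6). Activation and set cannot be told apart in these arrays.

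In cKO HFSCs, set 2 against set 1 gave Tnc 0.92 (log2, adjusted p = 0.786), 0 of 7 members and 0% of genes called, and members from -0.84 for Ccn1 to 0.92. At an unadjusted p under 0.05 there were 777 genes and 1 member, Tnc. The difference between the genotypes in the set effect of Tnc was -1.10 (SE 0.48, adjusted p = 0.683), and in this interaction 0 members and 0.00794% of genes passed, with 917 genes and 1 member under an unadjusted p of 0.05. A difference in the Tnc response between cKO and Het was thus not detected in the main fit. Over 17 alternative settings it lay between -1.78 and -0.63 (log2), and it passed in 1 of them. The count of members called in this interaction depended on the array left out. In fits that leave out an array, a single array stands for a condition.

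For Ccn1, Ccn2, Tgfbi and Postn activated Het HG was lower and activated Het bulge higher than in set 1, and for Thbs1 it was the other way round. Set 2 minus set 1 was -2.57 (log2) in HG and 0.95 in bulge for Ccn1, -2.003 and 0.22 for Ccn2, -2.49 and 0.20 for Tgfbi, and -2.46 and 0.27 for Postn. Their fitted differences over both fractions, from -1.14 for Tgfbi to -0.81 for Ccn1, did not pass (adjusted p between 0.324 and 0.637). Fn1 gave -0.72 (adjusted p = 0.262) and Thbs1 0.30 (adjusted p = 0.661), with 0.79 in HG and -0.18 in bulge for Thbs1. Whether HG and bulge differed in the set effect was not tested.

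Which array is left out decided these counts. Without the activated Het bulge array, high in stress genes, 5 members passed, beside 20.5% of genes in that fit (4 fell, beside 12.8%, and 1 rose, beside 7.74%), with Ccn1 at -2.66, Tgfbi at -2.51, Postn at -2.01 and Ccn2 at -1.83 beside Tnc at 2.48 (adjusted p between 4.39e-05 and 0.00275). Without the activated Het HG array Tnc passed alone (1.57, adjusted p = 0.0258), beside 2.11% of genes, and Ccn1 (1.04), Tgfbi (0.22) and Ccn2 (0.05) changed sign. Without any other array of this fit, 0 members passed.

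Set against the 3 other HG arrays, the activated Het HG array was at least 2-fold below each of them for 3 of 7 members, beside 10.8% of the 12589 genes, and at least 2-fold above each for 1, beside 4.27%. Tgfbi was 5.47-fold, Postn 3.29-fold and Ccn1 2.56-fold below the lowest of the other 3, and Tnc was 3.25-fold above the highest. Ccn2 lay 1.88-fold and Fn1 1.45-fold below the lowest, and Thbs1 lay within their range. The activated Het bulge array was not 2-fold above each other bulge array for any of 7 members, beside 0.643% of genes, nor 2-fold below, beside 3.57%. These values have no replicate check. On this HG array the means of the keratinocyte and fibroblast lists were the lowest of all arrays, as given above. The mean of 13 hair germ and early anagen genes was the highest there, at 10.755 against 8.19 to 9.77 (log2) elsewhere. There 11 immune cell markers averaged 7.15 against 7.96 to 9.33 (log2) on the other 11 arrays. The part of these lists in the members' values was not tested.

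**Figure D4:**
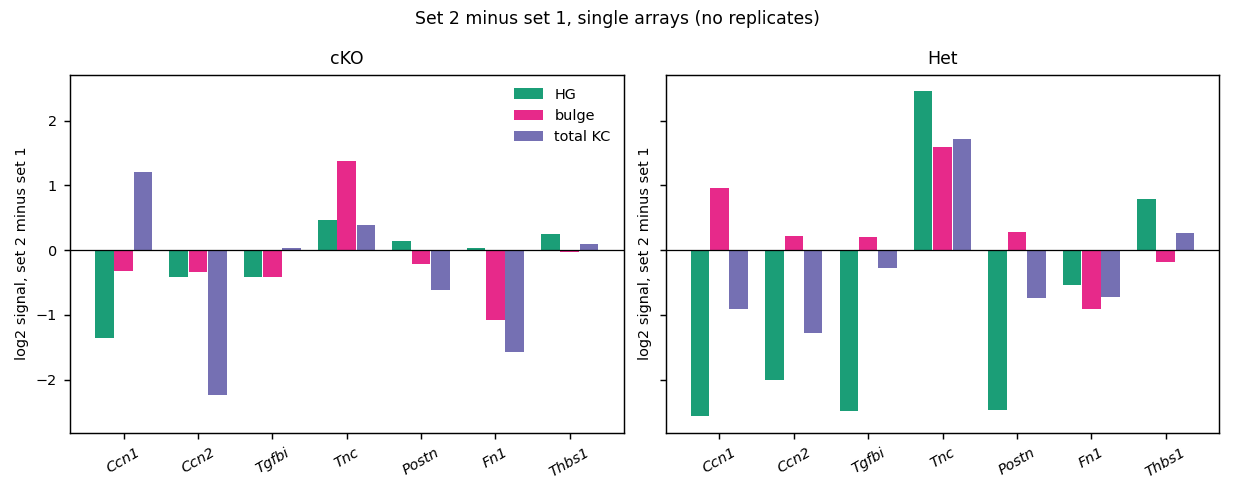
Set 2 minus set 1 in log2 MAS5 signal for each gene and fraction, in cKO (left) and Het (right); each bar is 1 array minus 1 array, with no replicates. Tnc is positive in all fractions of both genotypes, and Ccn1, Ccn2, Tgfbi and Postn are between -2.57 and -2.003 in Het HG and between 0.20 and 0.95 in Het bulge.

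Other matricellular genes were read from a list of 22. As a background for this and the next lists, 8.44% of all genes rose and 10.7% fell in HG against bulge. The shares were 5.11% and 5.72% in HG against total keratinocytes, and 13.8% and 10.5% in bulge against total keratinocytes. In set 2 against set 1 of Het HFSCs they were 0.0635% and 0.643%, and in cKO against Het of set 2 0.254% and 0.00794%. Of 16 tested CCN, thrombospondin, fibulin, SPARC and related genes, 8 fell and 1 rose in HG against bulge, with a median of -1.39 (log2) against -0.02 over all genes. Sparc, a collagen-binding protein gene, gave -3.04 (adjusted p = 1.01e-04), Smoc1 -2.59 (adjusted p = 3.64e-04), Ccn5 -2.17 (adjusted p = 0.00357) and the elastic fibre gene Fbln5 -2.11 (adjusted p = 0.00337). Smoc2, a close relative of Smoc1 and known as a stem cell gene in intestine, rose by 1.43 (adjusted p = 6.06e-04). In bulge against total keratinocytes 10 rose and 1 fell (median 1.83), with Smoc1 at 3.48 and Ccn5 at 3.16 and with Smoc2 at -1.58. In HG against total keratinocytes 1 rose, Fbln1 (0.89, adjusted p = 0.0239).

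Of 20 tested TGF-beta response genes outside these 7, 6 fell and 2 rose in HG against bulge (median -0.45, log2). The collagen genes Col1a1 (-3.92) and Col1a2 (-3.40), which are also in the fibroblast list, the latent TGF-beta binding protein gene Ltbp2 (-3.54) and the collagen cross-linking enzyme gene Lox (-2.67) fell most. Skil, a Smad corepressor induced by TGF-beta, rose by 1.13 (adjusted p = 9.85e-04) and Bhlhe40 by 1.09 (adjusted p = 0.0127). Skil also rose in HG against total keratinocytes, by 1.39 (adjusted p = 0.0011), where 4 genes of the list fell, led by the CDK inhibitor gene Cdkn1a at -1.69 (adjusted p = 0.00123). In bulge against total keratinocytes 7 rose and 2 fell, with Ltbp2 at 3.27 and Cdkn1a at -1.80.

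Of 17 YAP and TEAD target genes, without Ccn1 and Ccn2, 7 fell and 1 rose in HG against bulge (median -0.47, log2). Nt5e, the CD73 gene, gave -2.98 (adjusted p = 8.98e-05), Myof -1.51, Crim1 -1.08 and Rbms3 -1.07, and Amotl1 rose by 0.53 (adjusted p = 0.0326). In bulge against total keratinocytes 5 of this list rose and 6 fell, and its median was -0.06. In HG against total keratinocytes 1 rose and 5 fell (median -0.23). In Het HFSCs 1 member, Dlc1, fell in set 2 against set 1 (-1.46, adjusted p = 0.035).

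Among 18 tested genes of integrins and other receptors for these proteins, 6 fell and 1 rose in HG against bulge (median -0.54, log2). The integrin subunit gene Itgb8, whose product activates latent TGF-beta, gave -1.28 (adjusted p = 9.48e-04), the thrombospondin receptor gene Cd47 -1.22 (adjusted p = 0.00166) and the syndecan gene Sdc4 -1.17 (adjusted p = 0.00531). Ptprz1, a receptor phosphatase that binds tenascins, rose by 1.75 (adjusted p = 0.00591). Of 16 genes of TGF-beta receptors, ligands, Smads and latent TGF-beta binding proteins 6 fell and 0 rose. The binding protein genes were Ltbp2 (-3.54) and Ltbp3 (-0.81), both also among the response genes above, and Ltbp1 (-2.11), and the receptor genes were Eng, which encodes endoglin (-1.05), Tgfbr2 (-0.80, adjusted p = 0.0364) and Tgfbr3 (-0.70). In HG against total keratinocytes the ligand gene Tgfb3 rose by 1.09 (adjusted p = 0.0161). In the set comparisons the co-receptor gene Tgfbr3 fell in set 2 of Het HFSCs (-1.84, adjusted p = 0.0159) and was higher in cKO than in Het HFSCs of set 2 (1.81, adjusted p = 0.0293), the only gene of this list called there.

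The genes whose log2 signal followed each member most closely were read off over the 12 arrays, among 12742 genes, as a description with no test; arrays of a fraction share a sort gate. For Tgfbi they were Col17a1, a hemidesmosome collagen gene of basal keratinocytes (r = 0.98), Cnksr1 (0.98) and Dynlt3 (0.97). For Ccn2 they were Gfra2, Crip3 and Exoc3l2 (r = 0.98 each), and for Postn Gstt1 (0.99), Tekt2 and Dapk2 (0.98 each). For Ccn1 they were Rnf208 (0.96), Tmbim1 and the immediate early prostaglandin synthase gene Ptgs2 (0.95 each). For Fn1 they were Hip1, Prrg1 (0.95 each) and Gpm6b (0.94), and for Tnc Ccnq (0.94), Cetn2 (0.93) and Dlx2 (0.91). Thbs1 had the lowest values, with Tsnax (0.90), Pabpc1 and Rasgef1b (0.89 each).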

How the data were processed

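Cells of 3 fractions, 2 genotypes and 2 sets were measured on 12 arrays, with RNA extracted in Trizol and labelled from 2 µg, per the labels' protocols. The deposited values are MAS5 intensity (tool named per the submitters' processing notes, version not stated there); the mean after trimming 2% at each end was 500 on every array. Array medians ran from 63.9 to 109. Precision is limited by how many arrays there are.

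The table holds 45101 probe sets. Apart from 64 controls, 34945 had 1 gene symbol, 932 several and 9160 none, and 34741 were matched by gene ID to a current symbol. The probe set with the highest mean log2 signal stood for a gene. Values under the pooled 25th percentile (20.7, log2 4.37) were set to it, and a gene was tested if it exceeded the pooled median (84.7) on 2 or more arrays of the fit. Models were fitted in limma 3.58.1 under R 4.3.3 with moderated, trended variances and two-sided tests (lmFit, eBayes), with Benjamini-Hochberg adjustment over all genes of a comparison and a threshold of 0.05, and fits were tested on simulated data. HG, bulge and total keratinocytes were compared with genotype and set as a block, since arrays of a set share its number. Whether they share mice was not stated in the labels. All member probe sets were described; of other lists up to 4 called genes with the largest change were named, with others where a count needed them, and the 3 genes most like each member by r. Members and lists were chosen with earlier results of these data known. The alternatives were quantile normalization, other floors and filters, the mean of probe sets, every probe set, no trend, no block, all 12 arrays and leaving out arrays or conditions.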

Additional observations from a re-analysis of the deposited data

Results flagged for a closer look

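Tgfbi in activated Het HG of set 2 lay far from the other 3 HG arrays. Its gap to the nearest of them was 0.8542 of the range of the 4 arrays on the log2 scale, the only such gap past Dixon's 95% critical value among 21 sets of 4 arrays checked (7 genes in 3 fractions). Chance gives about 1 such gap in 20, and the 4 arrays of a fraction differ in genotype and set.

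Some effects ran in opposite directions between fractions in both available pairs of arrays, and none of these differences was tested. All members were scanned for this, for the genotype and the set effect and for every pair of fractions. The rule uses only the signs of a few differences between single arrays. Chance alone can give several such patterns in a scan of this kind, and how many was not worked out. For Ccn1 the mean difference of cKO from Het was higher in HG than in bulge by 2.0336 (log2), with cKO above Het in both sets of HG and below it in both sets of bulge. It was lower in bulge than in total keratinocytes, by -2.4315. These values are from the highest Ccn1 probe set. In bulge of set 1, cKO was above Het on 1457823_at (1338 against 811.3) and on 1442340_x_at (1308 against 767.6), so the pattern was absent there. For Postn the mean difference of cKO from Het was higher in bulge than in total keratinocytes by 1.0892, positive in both sets of bulge and negative in both sets of total keratinocytes. For Thbs1 the mean difference of set 2 from set 1 was higher in HG than in bulge by 0.6289 and lower in bulge than in total keratinocytes, at -0.2826. On the highest Thbs1 probe set, set 2 was above set 1 in HG and in total keratinocytes of both genotypes, and below it in bulge. The difference in cKO bulge was only -0.033 (log2). The second probe set, 1450377_at, went otherwise. There set 2 was above set 1 in Het bulge (304.8 against 198.5). It was below set 1 in total keratinocytes of Het (175.5 against 186.0) and of cKO (245.6 against 368.7).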

How the results depend on the processing

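The count of members called between HG and bulge (6) was 1 with no filter, 3 with probe sets averaged per gene, 2 with eBayes without a trend, 4 with a floor at the pooled median or no replicate block, and 2 to 6 when conditions were left out. Between HG and total keratinocytes (2) it was 1 under quantile normalization, with a floor at the pooled median, with no filter, with the mean of probe sets, without a trend, with no replicate block and in each fit that left out arrays. Between bulge and total keratinocytes (4) it was 3 with no replicate block or the mean of probe sets and 4 to 5 when arrays were left out. In Het HFSCs, set 2 against set 1 (1), it was 0 with no filter, a floor at the pooled median, the mean of probe sets or no trend, and 0 to 5 when arrays were left out. For the interaction and for cKO against Het in set 2 the count also changed with the array left out. In those fits a single array stands for a condition, and the share of all genes called changed as well. The count was 0 in all settings for cKO against Het over all fractions and in set 1, and for the sets of cKO HFSCs. With averaged probe sets, Fn1 changed sign in HG against bulge (0.71, adjusted p = 0.0458), as did Tnc (-0.25) and Thbs1 (-0.19) in cKO HFSCs, set 2 against set 1, where Postn was 0.068 (also a change of sign) under quantile normalization. For Fn1 and Thbs1 the second probe sets differ as given above. The second Tnc probe set, at the floor on 6 arrays, was lower in set 2 than in set 1 of cKO. Its signal was 25.1 against 64.9 in HG and 27.6 against 77.0 in bulge. For Postn the cause was not tested. When arrays were left out, signs changed in these ranges (log2): Fn1 -0.37 to 0.017 in HG against bulge; Ccn2 -0.57 to 0.41 and Postn -0.37 to 0.40 in HG against total keratinocytes; Ccn1 -0.063 to 1.31 in bulge against total keratinocytes; Ccn1 -0.19 to 0.64 and Postn -0.14 to 0.38 in cKO against Het; Ccn1 -2.66 to 1.04, Ccn2 -1.83 to 0.05, Tgfbi -2.51 to 0.22 and Thbs1 -0.18 to 0.79 in set 2 against set 1 of Het HFSCs; Ccn1 -1.87 to 0.18, Tgfbi -0.89 to 0.056, Postn -0.16 to 0.076 and Thbs1 -0.15 to 0.37 in the same comparison of cKO HFSCs; and Tgfbi -0.29 to 2.44 in cKO against Het in set 2. Of the members' other values under the alternatives, 669 kept their direction and their side of the threshold, 53 no longer passed and 9 newly passed.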
